A study of Mus musculus with 12 samples.

Results

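Collagen genes were described in liver tumours of mice whose hepatocytes had lost Miz1, or had lost the POZ domain of Miz1, each set against tumours of floxed mice without Cre. Members were all genes whose symbol is Col, a type number, the letter a and a chain number. This gave 44 genes over both deposited tables. The Miz1 table held 36 of them among its 21751 genes and loci, and all 36 could be tested. All 44 were among the 24054 genes of the Miz1(POZ) table, where 19 reached the mean of 1 FPKM (fragments scaled by transcript length and library depth) needed for testing. By structure, 11 of the 44 were fibrillar collagens, 6 were basement membrane collagens of type IV, 9 were network collagens of types VI, VIII and X, and 18 were other collagens.

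Collagens are secreted proteins whose chains wind into a helix and assemble outside the cell. Fibrillar collagens such as types I and III form the fibres of scar tissue, and type IV collagen forms the sheets that underlie endothelium and bile ducts. In the injured liver, activated stellate cells are the best-known source of fibrillar collagen, and carbon tetrachloride is widely used to set off that scarring in mice. Hepatocytes are known to make type XVIII collagen, a basement membrane collagen whose C-terminal fragment is endostatin.

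The Miz1 knockout group carried floxed Miz1 alleles and the Alb-Cre transgene, in which the albumin promoter drives Cre recombinase in hepatocytes. The Miz1 floxed group carried the same alleles without Cre. The Miz1(POZ) knockout and Miz1(POZ) floxed groups were built in the same way from an allele in which only the POZ domain, a protein interaction domain, was floxed. All 4 groups were on a C57BL/6 background, and tumours had been induced in all of them with 25 mg/kg diethylnitrosamine at 2 weeks of age and weekly injections of 0.5 ml/kg carbon tetrachloride in corn oil. Tumours freed of surrounding tissue were taken at 5 months, with 3 libraries per group and 12 in all. The labels do not say whether the libraries of a group came from separate mice, so the tests measure only the spread between these libraries. The stellate and endothelial cells of these tumours are outside the cells that Alb-Cre targets.

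Zbtb17, which encodes Miz1, was at 261, 271 and 267 normalised reads in the Miz1 knockout libraries, against 323, 306 and 302 in the Miz1 floxed libraries. All 3 knockout values lay below the floxed values (means 267 ± 5.07 and 310.3 ± 10.9, SD, n = 3 each; 2-sided exact permutation test, p = 0.1, the smallest that 3 against 3 can give). Of all genes tested in the Miz1 table, 3.05% had all 3 knockout values below the floxed ones. The limma log2 fold change of Zbtb17 was -0.22 ± 0.14 (moderated SE, limma adjusted p = 0.9998). Zbtb17 averaged 2.37 ± 0.362 FPKM in Miz1(POZ) knockout and 2.10 ± 0.326 FPKM in Miz1(POZ) floxed tumours (SD, n = 3 each; exact permutation p = 0.3). Its log2 fold change there was 0.12 ± 0.14 (moderated SE, limma adjusted p = 0.85). The labels do not give the deleted exons, and a gene-wide value is only a partial check of the deletion. Hepatocyte, endothelial, macrophage, stellate and bile duct markers were all measured, and 0 of them were at 0 in every library. Depth was 30151743 to 76122969 reads in genes in 5 Miz1 libraries, is not claimed for floxed replicate 3 and is unknown for the Miz1(POZ) table.

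One library stood apart for the collagens. Miz1 knockout replicate 1 had the highest value of the 6 Miz1 libraries for 19 of the 36 collagens, while knockout replicates 2 and 3 had the highest for 1 each, and floxed replicates 1, 2 and 3 for 2, 7 and 6. The same library held the highest bile duct cytokeratin 19 (Krt19) at 125 normalised reads, with 21.5 and 7.68 in the other knockout libraries, against 2.40, 36.8 and 53.5 in the floxed libraries. The 6 bile duct markers summed to 10393, 2024 and 1959 normalised reads in knockout libraries, against 7448, 1943 and 2407 in floxed libraries. Without Spp1, the bile duct marker with the most reads, the sums were 1868, 1193 and 1017 (knockout) and 1154, 848 and 844 (floxed). Among floxed libraries, Krt7, Krt19, Epcam and Cftr were lowest in replicate 1, and Spp1 and Sox9 were highest there. The 12 stellate and myofibroblast markers summed to 14295, 7916 and 8482.5 (knockout) and to 13069, 7938 and 10802 (floxed). The stellate marker with the most reads was Reln, at 6806, 3952 and 4368 (knockout) and 9574, 2811 and 5725 (floxed). Without Reln the stellate sums were 7489, 3964 and 4115 in knockout libraries, against 3495, 5127 and 5077 in floxed libraries, highest in knockout replicate 1 and lowest in floxed replicate 1. The 7 macrophage markers summed to 10777 (replicate 1), 5262 and 5158 in knockout libraries, against 8492, 3258 and 4715 in floxed libraries. The 8 endothelial markers summed to 13555, 12827 and 12180.5 (knockout) and to 15496, 11850 and 11948 (floxed). Of these 8, 1 was highest in knockout replicate 1. Of the 8 hepatocyte markers, 4 were lowest in knockout replicate 1 and 1 (Serpina1a) was highest there. Cyp2e1, a hepatocyte enzyme that activates carbon tetrachloride, was at 7059, 57731 and 73330 in knockout libraries, against 6372, 131465 and 100946 in floxed libraries, low in replicate 1 of both groups. The part of these cells in the collagen values was not tested, and in bulk tumour RNA more cells of a type and more RNA per cell cannot be told apart.

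The first comparison set the 36 collagens of the Miz1 knockout tumours against those of the Miz1 floxed tumours. Group means put 23 of the 36 above the floxed level, with a median log2 fold change of 0.11 for knockout minus floxed, where 52.1% of all genes tested were higher and their median was 0.01. Of the 36, 0 passed the limma test at a Benjamini-Hochberg adjusted p under 0.05, as did 0% of all genes, and every collagen had an adjusted p of 0.9998. At an unadjusted p under 0.05 there were also 0 collagens, against 1.67% of all genes. Without knockout replicate 1, only 11 of the 36 were higher in knockout tumours and the median was -0.20, while 52.6% of all genes were higher. Without floxed replicate 1, 18 of the 36 were higher and the median was -0.014. The direction of the family in this comparison thus rested on single libraries. Over all genes tested, 52.6%, 52.1% and 51.2% were higher in knockout tumours without knockout replicates 1, 2 and 3, and 50.2%, 50.6% and 52.4% without floxed replicates 1, 2 and 3.

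Among the fibrillar collagens of the Miz1 tumours, Col3a1, the chain of type III collagen, was at 6686, 2598 and 2307 normalised reads in knockout tumours, against 3122, 1032 and 3053 in floxed tumours. Knockout replicate 1 exceeded every other library and floxed replicate 2 was the lowest, so the groups overlapped (log2 fold change 0.68 ± 0.58, moderated SE). Col1a1, the main chain of type I collagen, was at 2358, 949 and 779 in knockout tumours and at 1246, 629 and 1316 in floxed tumours. Its partner chain Col1a2 was at 2700.4, 1226 and 1089 in knockout tumours and at 1111, 945 and 1605 in floxed tumours. For both type I chains the other knockout libraries lay within the floxed range, and the log2 fold changes were 0.25 ± 0.49 for Col1a1 and 0.37 ± 0.39 for Col1a2.

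Col5a1 and Col5a2 encode chains of type V collagen, which nucleates type I fibrils. Col5a1 was at 1043, 781 and 627 normalised reads in knockout and 638, 780.1 and 764 in floxed tumours (log2 fold change 0.14 ± 0.21). Col5a2 was at 1379, 497 and 500.0 in knockout and 836, 474 and 914 in floxed tumours (-0.03 ± 0.47). Col27a1, a fibrillar collagen best known from cartilage, was at 319.9, 304 and 390.1 in knockout and 317, 626 and 381 in floxed tumours (-0.33 ± 0.28). Col24a1 was at 24.0, 21.5 and 14.9 in knockout and 6.00, 14.1 and 36.4 in floxed tumours (0.39 ± 0.64). None of these had groups that did not overlap. The remaining fibrillar members, Col5a3 and Col11a2, had log2 fold changes of -0.09 ± 0.44 and 0.21 ± 0.46. As a class, 6 of 9 fibrillar collagens were higher in knockout tumours with a median of 0.21, and 4 of 9 with a median of -0.04 without knockout replicate 1.

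**Figure D1:**
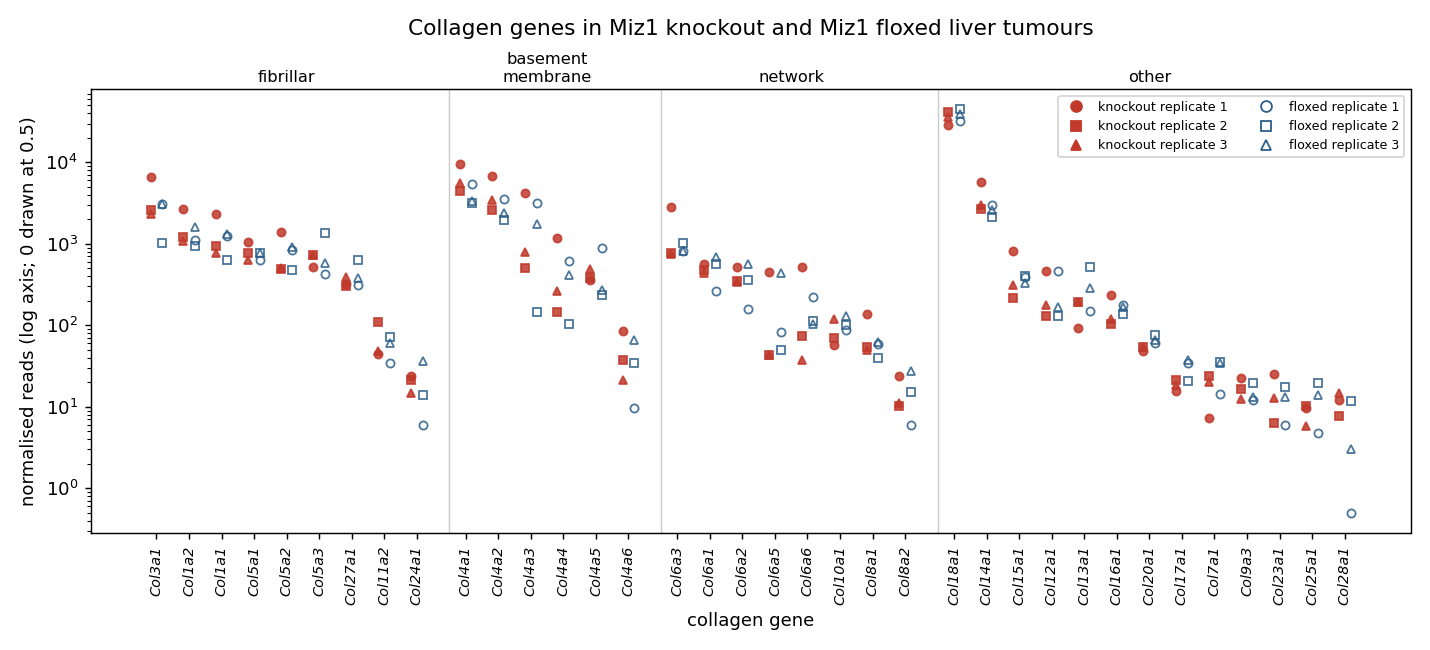
Normalised reads (log axis, 0 drawn at 0.5) of the 36 collagens in the 3 Miz1 knockout libraries (filled red, left of each gene's tick) and the 3 Miz1 floxed libraries (open blue, right), by class and in order of mean. Filled circles, knockout replicate 1, are the highest points for 19 of the 36 genes, Col3a1, Col4a1 and Col6a3 among them, and the 3 knockout values lie on 1 side of the floxed values for Col20a1 only.

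The basement membrane collagens were higher on average in Miz1 knockout tumours for 6 of 6 chains, with a median log2 fold change of 0.44. Without knockout replicate 1 this was 3 of 6 with a median of 0.08, and without floxed replicate 2 also 3 of 6 with 0.08. Col4a1, the most widespread type IV chain, was at 9463, 4483 and 5564 normalised reads in knockout tumours, against 5364, 3141 and 3375 in floxed tumours. Each knockout library exceeded the floxed library of the same number, but the groups overlapped, since floxed replicate 1 exceeded knockout replicate 2 (log2 fold change 0.68 ± 0.34, adjusted p = 0.9998 with limma). Col4a2, which joins Col4a1 in the same molecule, was at 6832, 2626 and 3480.2 in knockout and 3579.9, 1989.7 and 2423 in floxed tumours. It showed the same pattern over the libraries (log2 fold change 0.62 ± 0.39).

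In the Miz1 table libraries of the same number deviated together across all genes, so a fit paired by replicate number was made as well. Knockout replicate 3 deviated more with floxed replicate 2 (correlation 0.282) than with floxed replicate 3 (0.118), so pairing by number is not established. The share of all genes with every same-numbered pair in the same direction is not given. Such agreement, wherever it is named here, is therefore only a description. Paired by number, 4 of 36 collagens had an unadjusted p under 0.05 in limma, against 5.29% of all genes, where the unpaired fit had 0 collagens. These were Col4a1, Col4a2 and Col14a1, higher in knockout tumours, and Col13a1, lower; they are named because they crossed this line. Each had an adjusted p of 0.908 in the paired limma fit, and 0 genes of the table passed in either fit. On the recovered reads of 5 libraries, edgeR and DESeq2 gave 0 collagens at an unadjusted p under 0.05, where they gave 1% and 1.48% of all genes. At an adjusted p under 0.05 edgeR called 0 genes and DESeq2 0.023% of genes, with 0 collagens among them. With equal column sums, 1 of 36 collagens had an unadjusted p under 0.05 in limma, against 1.55% of all genes.

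The other type IV chains varied far more between libraries. Col4a3 and Col4a4, chains best known from the kidney filter, were at 4267, 511 and 795 and at 1168, 146 and 261 normalised reads in knockout tumours. In floxed tumours Col4a3 was at 3172, 145 and 1744 and Col4a4 at 610.4, 103 and 416. Col4a3 spanned 29.4-fold and Col4a4 11.4-fold over the 6 libraries, both highest in replicate 1 of the knockout group and lowest in floxed replicate 2, so their log2 fold changes of 0.37 ± 1.31 and 0.25 ± 0.94 were far below their errors. Col4a5 and Col4a6 had log2 fold changes of 0.08 ± 0.50 and 0.52 ± 0.80.

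Col4a1 and Col4a2 kept near-constant proportions while their levels moved between libraries. The ratio of Col4a1 to Col4a2 reads stayed between 1.39 and 1.71 over the 6 Miz1 libraries, although the genes themselves spanned 3.01-fold and 3.43-fold. In FPKM, the ratio stayed between 1.29 and 1.53 over the 6 Miz1(POZ) libraries, with gene spans of 2.33-fold and 2.72-fold and the same order of the libraries for both genes. Its mean was 1.56 in Miz1 knockout and 1.49 in Miz1 floxed tumours, and 1.40 in Miz1(POZ) knockout and 1.37 in Miz1(POZ) floxed tumours. Col4a3 and Col4a4 had the same order in all 6 Miz1 libraries, but their ratio ranged from 1.41 to 5.20. The ratio of Col4a5 to Col4a6, also partner chains, spanned 22.3-fold over the Miz1 libraries, and that of Col6a3 to Col6a1 4.29-fold. Across molecules, Col3a1 to Col1a1 spanned 1.80-fold and Col4a3 to Col4a1 12.8-fold, so a narrow ratio was not limited to partner chains. These ratios are descriptions of 6 libraries and carry no test.

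**Figure D2:**
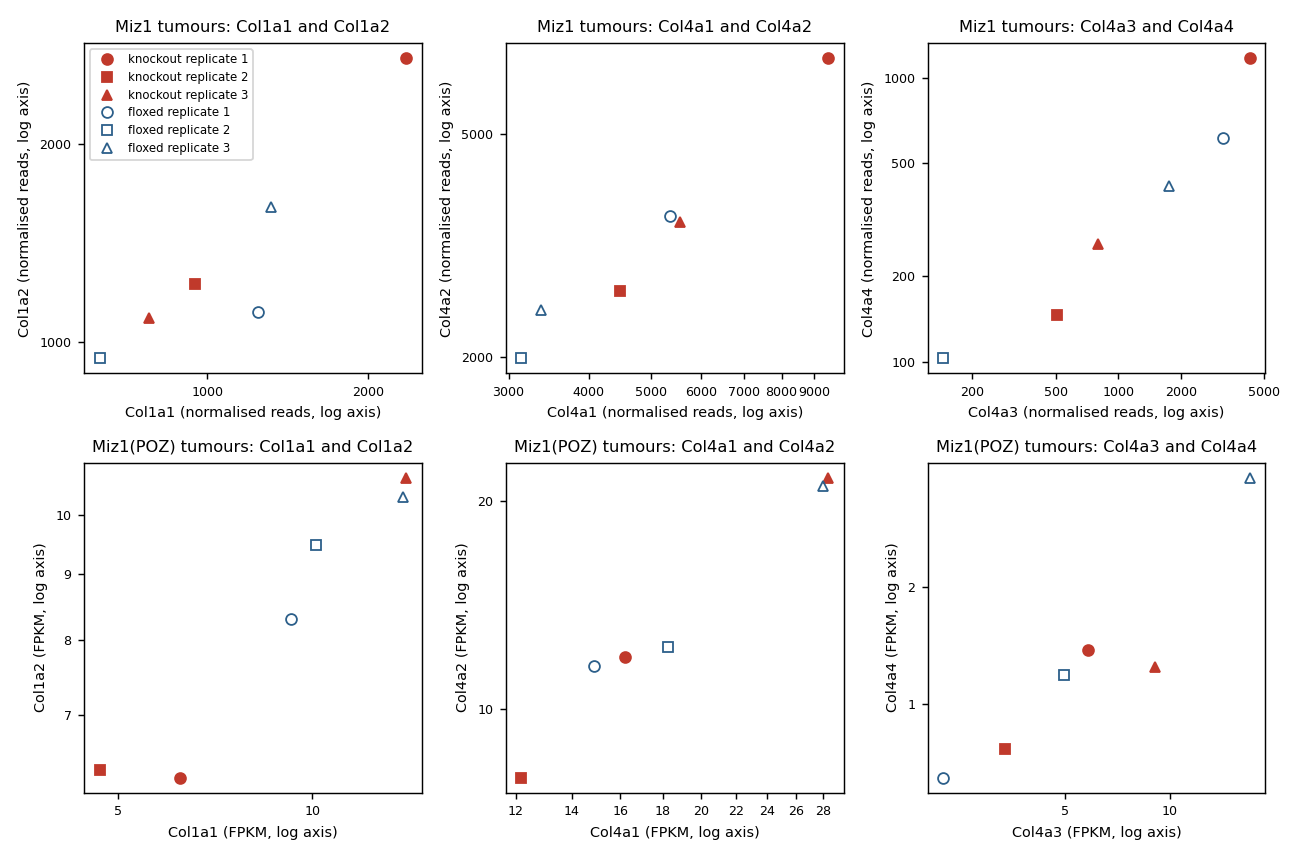
Each panel sets the levels of 2 chains of 1 collagen molecule against each other on log axes, in normalised reads for Miz1 tumours (top row) and FPKM for Miz1(POZ) tumours (bottom row), with filled red knockout and open blue floxed libraries. Col4a1 and Col4a2 lie close to a line in both rows, while Col4a3 and Col4a4 spread over 29.4-fold and 11.4-fold in the Miz1 row.

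The type IV genes lie in head-to-head pairs in the genome. In the gene annotation Col4a1, on the minus strand of chromosome 8, and Col4a2, on the plus strand, overlap, with start sites 21 bases apart. Their 300-base RefSeq promoter windows (GRCm38.p6) share 78 bases. The starts of Col4a4 (minus strand of chromosome 1) and Col4a3 (plus strand) lie 72 bases apart in the gene annotation, and those of Col4a6 and Col4a5 on chromosome X lie 1309 bases apart. The windows of the pair with the steadiest ratio and of Col4a4 are shown, 250 bases before to 50 after the start, 5′ to 3′ on the gene's own strand. Capitals mark CCAAT boxes (CCAAT, or ATTGG on the other strand) and GC boxes (GGGCGG, or CCGCCC).
Col4a1, chr8:11312777-11313076, minus strand: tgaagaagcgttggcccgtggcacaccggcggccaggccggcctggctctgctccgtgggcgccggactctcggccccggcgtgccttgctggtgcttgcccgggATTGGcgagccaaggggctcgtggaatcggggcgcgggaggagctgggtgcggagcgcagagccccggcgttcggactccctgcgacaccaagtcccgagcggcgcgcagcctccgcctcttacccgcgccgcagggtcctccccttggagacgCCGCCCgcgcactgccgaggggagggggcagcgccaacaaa
Col4a2, chr8:11312555-11312854, plus strand: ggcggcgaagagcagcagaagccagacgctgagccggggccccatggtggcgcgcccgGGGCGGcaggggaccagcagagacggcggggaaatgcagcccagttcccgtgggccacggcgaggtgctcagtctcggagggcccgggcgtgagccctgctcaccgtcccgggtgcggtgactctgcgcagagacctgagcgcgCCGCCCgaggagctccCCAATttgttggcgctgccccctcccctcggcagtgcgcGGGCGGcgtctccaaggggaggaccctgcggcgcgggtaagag
Col4a4, chr1:82586800-82587099, minus strand: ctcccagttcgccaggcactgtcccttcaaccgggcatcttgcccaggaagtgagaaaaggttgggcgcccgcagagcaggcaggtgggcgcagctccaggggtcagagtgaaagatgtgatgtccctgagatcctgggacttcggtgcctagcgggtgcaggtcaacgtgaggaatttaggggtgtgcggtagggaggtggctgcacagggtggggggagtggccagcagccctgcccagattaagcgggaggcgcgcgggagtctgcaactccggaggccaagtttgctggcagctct

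The Col4a1 window held 1 CCAAT box and 1 GC box, the Col4a2 window 1 and 3, and the Col4a4 window 0 of either. The GC box of Col4a1 lies in the bases that the Col4a2 window shares, and it is 1 of the 3 there. It counts for both windows, here and in the shares below. Promoter windows were found for 35 of the 44 collagen symbols, 38 windows in all. A CCAAT box stood in 34.2% of them, against 37.4% of all 32851 windows of that length, and a GC box in 60.5%, against 35.7%. Such matches are descriptions of letters and show no binding.

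Among network collagens of the Miz1 tumours, 5 of 8 had a higher knockout mean (median log2 fold change 0.04), 1 of 8 did without knockout replicate 1 (median -0.20), and 3 of 8 did without floxed replicate 1 (median -0.27). Type VI collagen forms beaded filaments around cells. Its chain Col6a3 was at 2829, 778 and 761 normalised reads in knockout tumours, against 823, 1011 and 808 in floxed tumours (0.44 ± 0.51). Knockout replicate 1 alone lay above the floxed range, and the other 2 knockout libraries lay below it. Col6a1 was at 568, 475 and 434 in knockout and 260.2, 568 and 696 in floxed tumours (0.06 ± 0.37). Col6a2 was at 527, 355 and 341 in knockout and 161, 362 and 558 in floxed tumours (0.32 ± 0.46). For Col6a1 and Col6a2 floxed replicate 1 was the lowest library, and the groups overlapped.

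Col8a1, a short-chain collagen of vessel walls, was at 139, 54.5 and 49.9 normalised reads in knockout and 58.8, 40.0 and 61.6 in floxed tumours. It had the largest log2 fold change of its class, 0.46 ± 0.45. Col10a1, the hypertrophic cartilage collagen, was at 57.5, 69.7 and 119 in knockout and 88.7, 99.5 and 131 in floxed tumours (-0.42 ± 0.33). Each knockout library was below the floxed library of its number, within overlapping groups. Col6a6 was at 514, 74.8 and 37.4 in knockout and 225, 111 and 104 in floxed tumours (-0.28 ± 0.94). Here knockout replicate 1 was the highest library and the other knockout libraries were the lowest. Col6a5 and Col8a2 had log2 fold changes of -0.36 ± 1.17 and 0.02 ± 0.63.

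Of the 13 other collagens in the Miz1 table, 6 were higher in knockout tumours, with a median log2 fold change of -0.13, which was 0.01 under quantile scaling, and 3 were higher without knockout replicate 1 (median -0.30). Without knockout replicate 2, 7 were higher (median 0.08). Col14a1, which coats type I fibrils, was at 5801, 2653 and 3012 normalised reads in knockout and 3011, 2143 and 2580.4 in floxed tumours (0.49 ± 0.32). Each knockout library exceeded the floxed library of its number, with overlapping groups. Col12a1, of the same fibril-associated family, was at 459, 129 and 179 in knockout and 469, 131 and 169 in floxed tumours (0.01 ± 0.63). Replicate 1 was high in both groups, and the means were the same to 3 digits. Col15a1, a basement membrane zone collagen closely related to type XVIII, was at 809.9, 217 and 312 in knockout and 387, 408 and 334 in floxed tumours (0.02 ± 0.47).

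Col20a1 was the 1 collagen whose 3 knockout libraries all lay below the 3 floxed libraries, where 3.05% of all genes did so, and 0 collagens had all 3 above, where 2.57% did. It was at 47.9, 54.5 and 54.7 normalised reads in knockout and 61.2, 75.7 and 66.7 in floxed tumours (log2 fold change -0.36 ± 0.22). Col17a1, the transmembrane collagen of epithelial anchoring junctions, was at 15.6, 21.5 and 18.7 in knockout and 34.8, 20.6 and 37.4 in floxed tumours (-0.67 ± 0.35). Col28a1 was at 12.0, 7.60 and 14.9 in knockout and 0, 11.9 and 3.03 in floxed tumours (1.70 ± 0.94). Col17a1 reached at most 37.4 and Col28a1 at most 14.9 normalised reads, few enough for counting error to weigh. Col13a1, a transmembrane collagen named for its paired result, was at 93.4, 195 and 192 in knockout and 149.9, 526 and 286 in floxed tumours (-0.89 ± 0.52). The remaining 6 other collagens, Col7a1, Col9a3, Col16a1, Col18a1, Col23a1 and Col25a1, had log2 fold changes from -0.73 to 0.19.

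Col18a1 had the most reads of any collagen in the Miz1 table. It was at 28971, 41264 and 35759.8 normalised reads in knockout tumours, against 32079, 44659 and 39316 in floxed tumours. Its highest library was 1.54 times its lowest, the smallest span among collagens with a value above 0 in all libraries, and knockout replicate 1 was its lowest library rather than its highest. Each knockout library was below the floxed library of its number, the groups overlapped, and the log2 fold change was -0.13 ± 0.23, or 0.07 under quantile scaling.

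**Figure D3:**
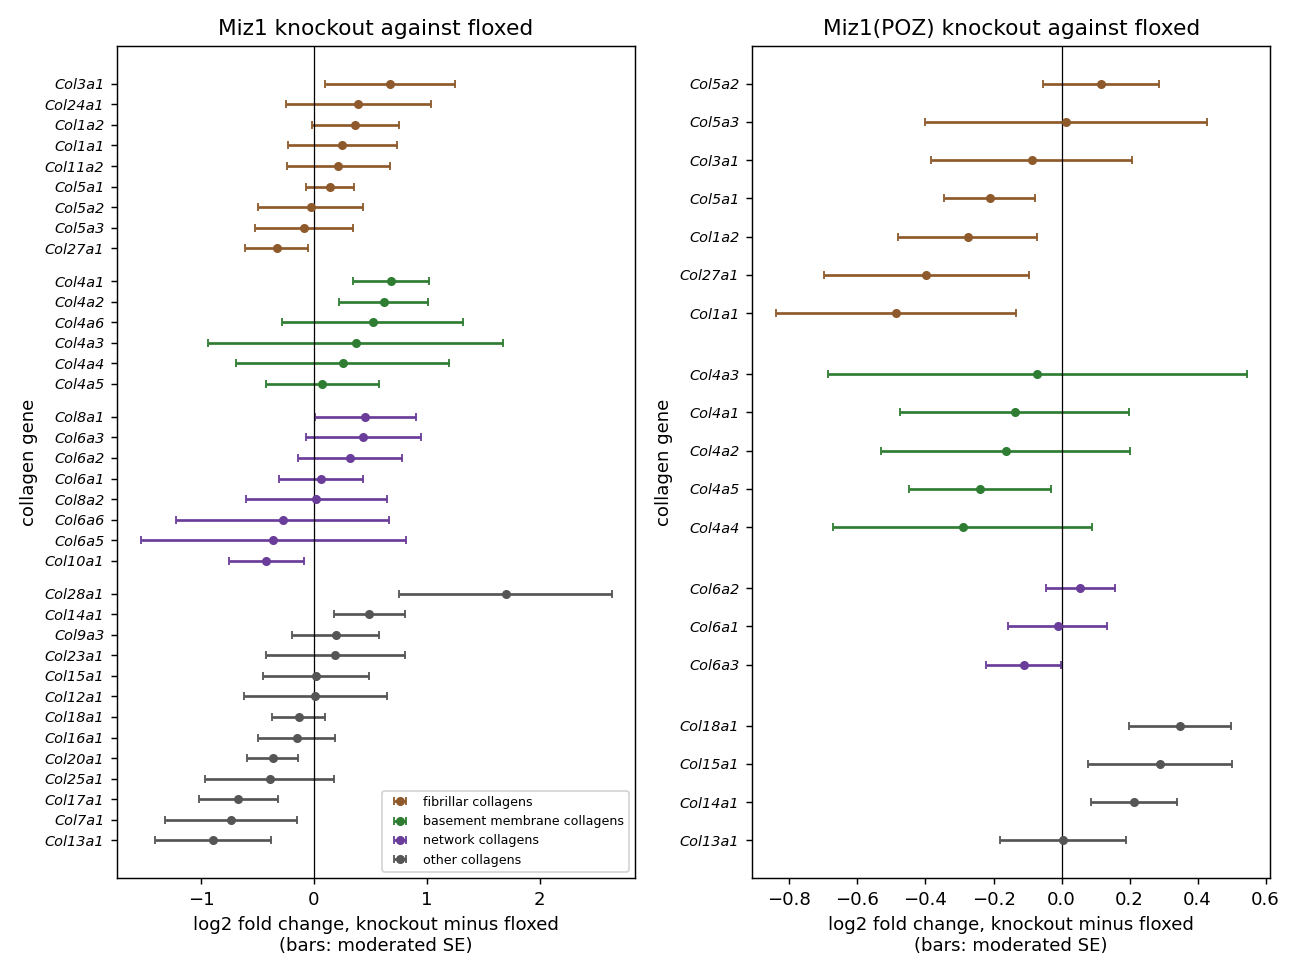
Log2 fold changes, knockout minus floxed, of the tested collagens by class and in order of size within it, for Miz1 (left, 36 genes) and Miz1(POZ) (right, 19 genes), with bars for the moderated SE. The scales differ; 23 Miz1 points and 7 Miz1(POZ) points lie right of 0, and Col18a1 lies left of 0 for Miz1 and right of it for Miz1(POZ).

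The second comparison set collagens of Miz1(POZ) knockout tumours against those of Miz1(POZ) floxed tumours. Of 19 tested members, 7 were higher on average in knockout tumours with a median log2 fold change of -0.09, where 55.7% of all genes tested were higher with a median of 0.03. Scaled to equal column sums, 5 of 19 were higher. Under limma 0 collagens passed an adjusted p of 0.05, as did 0% of all genes, and 0 had an unadjusted p under 0.05, where 8.71% of all genes did. With pairing by replicate number 0 collagens had an unadjusted p under 0.05, where 9.61% of all genes did. Median-ratio scaling gave 1 of 19 (9.46% of all genes), and with no filter on low values it was 4 of 41 collagens, 1 higher and 3 lower in knockout tumours (7.79% of all genes). Leaving out 1 library at a time gave between 6 and 10 of 19 higher in knockout tumours, with medians from -0.28 without knockout replicate 3 to 0.04 without floxed replicate 3. Over all genes the share was then 60.1%, 50.3% and 54.3% without knockout replicates 1, 2 and 3, and 58.9%, 56.1% and 51.3% without floxed replicates 1, 2 and 3.

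FPKM values are scaled by transcript length, so genes can be ranked within this table. Col18a1 was by far the most abundant collagen, with 65.7% of the summed collagen FPKM on average. It was followed by Col4a1 (5.51%), Col4a2 (4.03%), Col3a1 (3.98%), Col14a1 (3.95%), Col1a1 (2.72%) and Col1a2 (2.40%). In these mean levels Col4a2, Col3a1 and Col14a1, at 14.4, 14.2 and 14.1 FPKM, differed by less than their spread between libraries. All collagens together summed to 374, 357 and 408 FPKM in knockout tumours, against 336, 306 and 359 in floxed tumours (379.9 ± 25.8 and 333.6 ± 26.3, SD, n = 3 each). Col18a1 alone differed by more than these sums, and the 3 classes that do not hold it each had a lower mean sum in knockout tumours.

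Col18a1 was the 1 tested collagen whose 3 knockout libraries all lay above the floxed ones, where 8.68% of all genes did so. It was at 268, 265 and 255 FPKM in Miz1(POZ) knockout tumours, against 219.6, 194 and 206 FPKM in Miz1(POZ) floxed tumours. The means were 263 ± 6.71 and 206 ± 12.9 FPKM (SD, n = 3 each), and the gap between the groups was wider than the range within either. The log2 fold change was 0.35 ± 0.15, and limma gave an adjusted p of 0.57, so the difference did not pass across all genes. Among hepatocyte markers Alb, the albumin gene, was at 30507, 23093 and 51476 FPKM in knockout and 38418, 43733 and 62597 FPKM in floxed tumours. Of the 8 hepatocyte markers, 6 were lower on average in knockout tumours, Alb among them (log2 fold change -0.51 ± 0.49). The 2 that were higher were Cyp2e1 (0.88 ± 0.51) and Cps1 (0.47 ± 0.31). The part of hepatocytes in the Col18a1 values was not tested.

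Col18a1 (chr10:77052178-77166548, minus strand, GENCODE M21 on GRCm38) is known to have a pair of promoters that give a short and longer forms, the downstream one being the promoter used in hepatocytes. Values summed over the gene, as in both tables, cannot tell these forms apart. Both RefSeq windows are shown because Col18a1 is the leading collagen of both tables and its forms differ in source.
Col18a1 upstream, chr10:77166481-77166780, minus strand: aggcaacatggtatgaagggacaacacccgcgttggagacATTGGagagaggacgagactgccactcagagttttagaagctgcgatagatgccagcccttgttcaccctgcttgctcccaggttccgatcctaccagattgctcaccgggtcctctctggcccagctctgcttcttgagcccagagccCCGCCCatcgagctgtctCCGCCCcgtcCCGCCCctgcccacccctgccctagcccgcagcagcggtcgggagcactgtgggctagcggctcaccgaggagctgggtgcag
Col18a1 downstream, chr10:77113656-77113955, minus strand: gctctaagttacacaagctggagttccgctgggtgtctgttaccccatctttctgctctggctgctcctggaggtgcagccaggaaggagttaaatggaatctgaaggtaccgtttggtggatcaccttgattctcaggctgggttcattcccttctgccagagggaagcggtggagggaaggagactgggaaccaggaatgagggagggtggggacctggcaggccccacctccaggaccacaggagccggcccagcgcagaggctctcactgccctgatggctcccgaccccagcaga

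The upstream window held 1 CCAAT box and 3 GC boxes and the downstream window 0 of either.

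The other collagens of the same class were also higher on average, with 4 of 4 tested members above 0 and a median log2 fold change of 0.25. The median was 0.16 without knockout replicate 1 and 0.0050 without a filter on low values, and leaving out 1 library gave 3 or 4 of 4 above 0. Col14a1 was at 14.7, 14.5 and 16.4 FPKM in Miz1(POZ) knockout and 14.6, 11.5 and 12.9 FPKM in Miz1(POZ) floxed tumours (0.21 ± 0.13, limma adjusted p = 0.69). It was higher in knockout for each replicate number, with close values for number 1. Col15a1 was at 3.87, 2.37 and 1.73 FPKM in knockout and 1.92, 1.95 and 1.85 FPKM in floxed tumours (0.29 ± 0.21). Its floxed values were close together and the knockout values lay on both sides of them. Col13a1 had a log2 fold change of 0.0035 ± 0.185.

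Fibrillar collagens were higher in Miz1(POZ) knockout tumours for 2 of 7 tested members, with a median log2 fold change of -0.21. It was -0.42 without knockout replicate 3 and -0.11 without knockout replicate 2. Col1a1 was at 6.23, 4.68 and 14.0 FPKM in knockout tumours, against 9.25, 10.1 and 13.8 FPKM in floxed tumours (-0.49 ± 0.35, limma adjusted p = 0.74). Col1a2 was at 6.26, 6.35 and 10.7 FPKM in knockout and 8.31, 9.49 and 10.3 FPKM in floxed tumours (-0.28 ± 0.20). For both chains knockout replicates 1 and 2 lay below every floxed library and knockout replicate 3 lay above every one. Col3a1 was at 11.4, 9.36 and 21.6 FPKM in knockout and 12.2, 13.4 and 17.4 FPKM in floxed tumours (-0.09 ± 0.29), with the same split.

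The ratio of Col3a1 to Col1a1 FPKM separated the groups although neither gene did. It was 1.83, 2.00 and 1.54 in Miz1(POZ) knockout tumours, against 1.32, 1.32 and 1.26 in Miz1(POZ) floxed tumours. In the Miz1 tumours, in normalised reads that are not scaled by length, it was 2.84, 2.74 and 2.96 in knockout and 2.51, 1.64 and 2.32 in floxed libraries. All 3 knockout ratios were thus above the floxed ones with either allele. This ratio was 1 of 10 computed and was singled out after its values were seen, and it was not tested. The other ratios had overlapping groups with both alleles. The share of gene pairs whose ratio separates the groups is not given, so the separation cannot be read as a shared effect of the knockouts.

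Col5a1 was the 1 tested collagen whose 3 Miz1(POZ) knockout libraries all lay below the floxed ones, where 6.32% of all genes did so. It was at 2.48, 1.86 and 2.61 FPKM in knockout and 3.12, 2.72 and 2.64 FPKM in floxed tumours. Knockout replicate 3 and floxed replicate 3 were close (log2 fold change -0.21 ± 0.13, limma adjusted p = 0.71). Col5a2 was at 2.68, 3.33 and 3.22 FPKM in knockout and 3.73, 2.31 and 2.37 FPKM in floxed tumours (0.12 ± 0.17). Col27a1 was at 1.12, 1.98 and 1.88 FPKM in knockout and 4.42, 2.12 and 1.46 FPKM in floxed tumours (-0.40 ± 0.30). Floxed replicate 1 was the high library for Col27a1. Col5a3 had a log2 fold change of 0.01 ± 0.41.

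**Figure D4:**
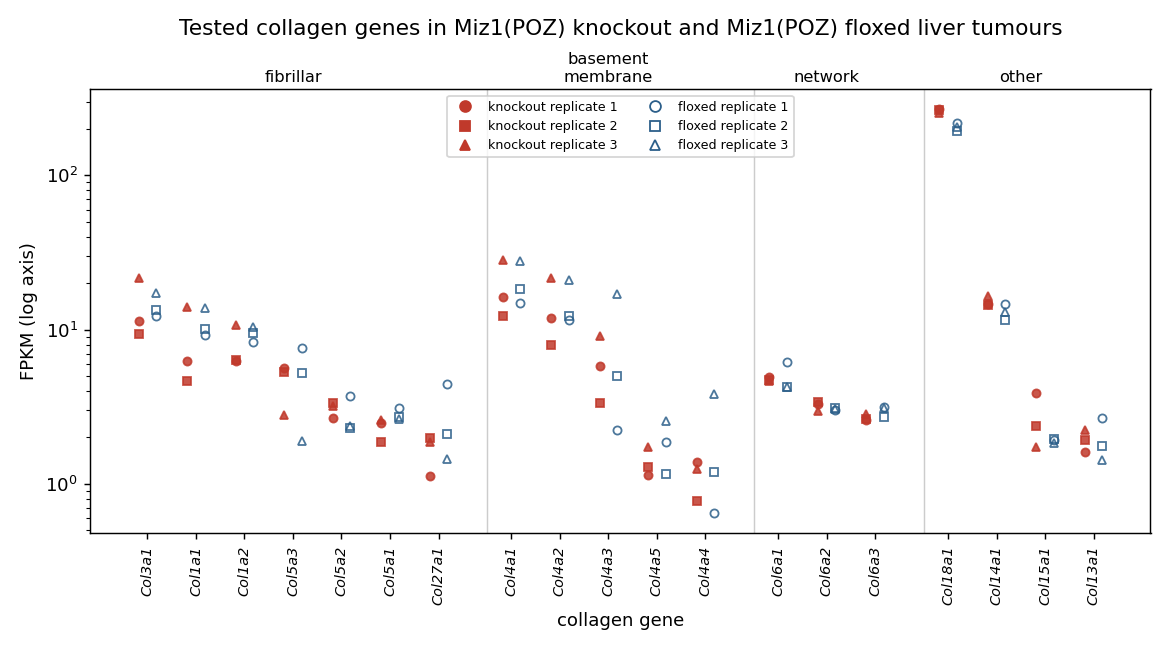
FPKM (log axis) of the 19 tested collagens in the 3 Miz1(POZ) knockout libraries (filled red, left of each gene's tick) and the 3 Miz1(POZ) floxed libraries (open blue, right), by class and in order of mean. Col18a1 lies between 194 and 268 FPKM with all knockout points above the floxed ones, and triangles (replicate 3) are the highest points of their group for Col3a1, Col1a1, Col1a2, Col4a1 and Col4a2.

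Basement membrane collagens were lower on average in Miz1(POZ) knockout tumours for 5 of 5 tested chains, with a median log2 fold change of -0.16. That direction rested on single libraries. Without knockout replicate 2, 3 of 5 were higher (median 0.12), and without floxed replicate 3, 4 of 5 were higher (median 0.11). Col4a1 was at 16.2, 12.2 and 28.4 FPKM in knockout tumours, against 14.9, 18.3 and 28.0 FPKM in floxed tumours (-0.14 ± 0.34). Col4a2 was at 11.9, 7.95 and 21.6 FPKM in knockout and 11.5, 12.3 and 21.0 FPKM in floxed tumours (-0.16 ± 0.37). Replicate 3 was the highest library of its group for both. Col4a4 was at 1.38, 0.77 and 1.25 FPKM in knockout and 0.65, 1.19 and 3.80 FPKM in floxed tumours (-0.29 ± 0.38). Col4a3 and Col4a5 had log2 fold changes of -0.07 ± 0.62 and -0.24 ± 0.21.

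The endothelial marker sum was also highest in replicate 3 of both groups. The 8 genes summed to 57.9, 57.6 and 85.05 FPKM in Miz1(POZ) knockout tumours, against 68.6, 69.8 and 88.3 FPKM in Miz1(POZ) floxed tumours. Singly, 4 of the 8 were highest in replicate 3 of both groups, and the others, Stab2 and Vwf among them, were not. The 12 stellate and myofibroblast markers summed to 50.1, 50.4 and 48.7 FPKM in knockout and 54.6, 46.4 and 46.1 FPKM in floxed tumours. Acta2, the myofibroblast actin, was at 0.68, 0.35 and 3.44 FPKM in knockout and 1.08, 0.99 and 1.56 FPKM in floxed tumours, highest in replicate 3 of both. Of the 12 markers Acta2 was the 1 highest in replicate 3 of both groups, and 4 were lowest there. The part of these cells in the collagen values was not tested.

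The type VI chains, with Col18a1 and Col14a1, were the 5 tested collagens of smallest span over the Miz1(POZ) libraries. Col6a1 was at 4.97, 4.71 and 4.63 FPKM in knockout and 6.14, 4.23 and 4.26 FPKM in floxed tumours (-0.01 ± 0.15). Col6a2 was at 3.29, 3.38 and 2.99 FPKM in knockout and 3.03, 3.10 and 3.05 FPKM in floxed tumours (0.05 ± 0.10). Its highest library was 1.13 times its lowest. Col6a3 was at 2.58, 2.63 and 2.84 FPKM in knockout and 3.14, 2.70 and 3.11 FPKM in floxed tumours (-0.11 ± 0.11).

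The 25 collagens below a mean of 1 FPKM had no test and averaged at most 0.717 FPKM. Of these, 3 were listed at 0 in all 6 libraries, namely Col2a1, Col9a1 and Col26a1. Of the 22 others, 3 had every knockout value below every floxed value, where 4.73% of all untested genes above 0 in some library did, and 0 had every knockout value above, where 3.09% did. Col10a1 was at 0.29, 0.70 and 0.41 FPKM in knockout and 1.21, 0.82 and 0.87 FPKM in floxed tumours. Col6a6 was at 0.26, 0.54 and 0.32 FPKM in knockout and 0.58, 0.74 and 0.89 FPKM in floxed tumours. Col24a1 was at 0.04, 0.02 and 0.04 FPKM in knockout and 0.27, 0.15 and 0.06 FPKM in floxed tumours. For Col10a1 the knockout library was also below its same-numbered floxed library in all 3 Miz1 pairs, whereas Col24a1 had a positive mean log2 fold change in the Miz1 table. Col8a1 was at 0.31, 0.22 and 0.33 FPKM in knockout and 0.31, 0.24 and 0.35 FPKM in floxed tumours. Col12a1 was at 0.43, 0.47 and 0.56 FPKM in knockout and 0.64, 0.56 and 0.41 FPKM in floxed tumours. Col20a1, whose groups did not overlap in the Miz1 table, was at 0.05, 0.13 and 0.08 FPKM in knockout and 0.08, 0.12 and 0.23 FPKM in floxed tumours, which overlapped.

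The 2 alleles were not tested against each other, because one table is in normalised reads and the other in FPKM. Among the 19 collagens tested with both, 3 were higher on average with both knockouts, 1 was lower with both, 11 were higher with the Miz1 knockout and lower with the Miz1(POZ) knockout, and 4 the other way round. Such counts were not made for all genes, so they cannot be read as a trait of collagens. Col14a1, Col15a1 and Col6a2 were the 3 higher with both, and Col27a1 was the 1 lower with both. Col27a1 turned to 0.02 in the Miz1 table without both libraries numbered 2 and to 0.08 in the Miz1(POZ) table without both numbered 1. In the Miz1 table Col15a1 turned to -0.53 without knockout replicate 1 and to -0.07 without floxed replicate 3, and Col6a2 turned to -0.17 without floxed replicate 1. Col14a1 kept a positive log2 fold change in all fits of both tables, from 0.15 to 0.71 for Miz1 and from 0.13 to 0.32 for Miz1(POZ).

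**Figure D5:**
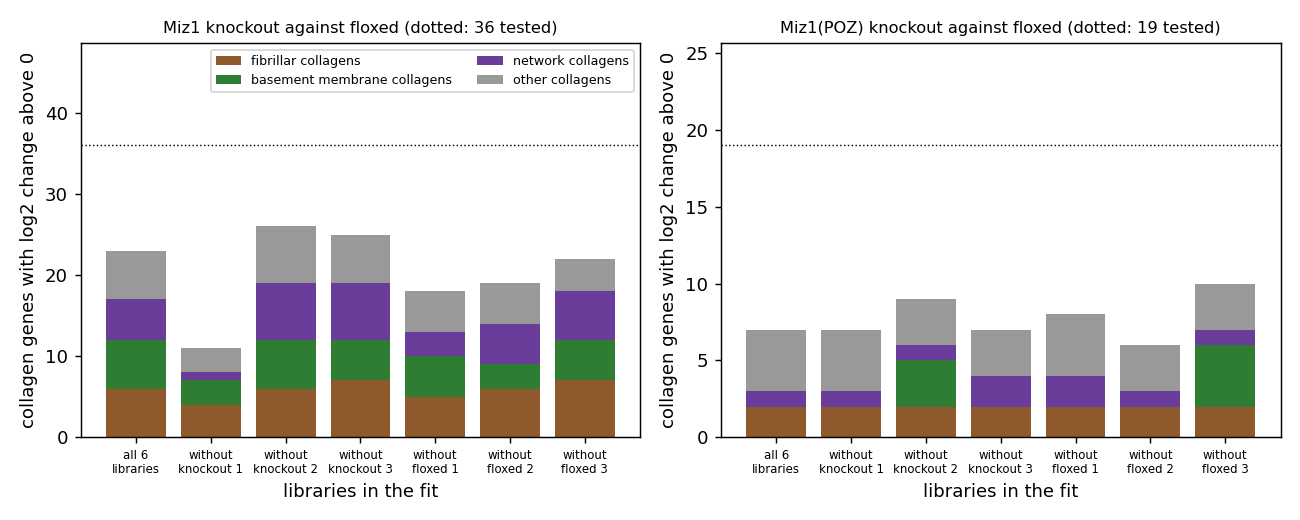
Bars give the number of tested collagens with a log2 fold change above 0, stacked by class, in the fit on all 6 libraries and in fits that each leave out 1 library, for Miz1 (left) and Miz1(POZ) (right), with a dotted line at the number tested. For Miz1 the count of 23 drops to 11 without knockout replicate 1, and for Miz1(POZ) the counts lie between 6 and 10 of 19.

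Genes that fold and process collagen were next examined, from lists of pathway members. In the Miz1 tumours 17 of 25 folding and processing genes were higher in knockout tumours (median log2 fold change 0.09), and 11 of 25 without knockout replicate 1. For Miz1(POZ) it was 10 of 17 (0.09). Of all pathway genes, 0 passed limma at an adjusted p under 0.05 in either table. P4ha1, a prolyl hydroxylase subunit that stabilises the helix, was at 460.0, 933 and 639 normalised reads in Miz1 knockout and 902, 1144 and 779 in Miz1 floxed tumours (-0.52 ± 0.29). In the Miz1(POZ) tumours it was at 2.92, 3.97 and 3.73 FPKM (knockout) and 3.58, 2.97 and 2.46 FPKM (floxed), a log2 fold change of 0.18 ± 0.15. Serpinh1, the collagen chaperone HSP47, was at 881, 373 and 434 normalised reads in Miz1 knockout and 479.7, 224 and 399.9 in Miz1 floxed tumours (0.58 ± 0.42), with replicate 1 again the highest of each group. In the Miz1(POZ) tumours it was at 4.23, 3.72 and 7.04 FPKM (knockout) and 4.43, 3.19 and 5.22 FPKM (floxed), with a log2 fold change of 0.16 ± 0.24.

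Bmp1, the protease that removes the C-terminal propeptide, was at 3253, 4194 and 3823 normalised reads in Miz1 knockout and 3733, 5705 and 4365 in Miz1 floxed tumours (-0.28 ± 0.20). In the Miz1(POZ) tumours it was at 35.4, 39.2 and 36.8 FPKM (knockout) and 35.4, 32.9 and 31.3 FPKM (floxed), a log2 fold change of 0.16 ± 0.12. The mean was lower with the Miz1 knockout and higher with the Miz1(POZ) knockout, and neither passed. Adamts14, which removes the N-terminal propeptide, was at 1.17, 1.00 and 4.18 FPKM in Miz1(POZ) knockout and 2.36, 2.39 and 5.56 FPKM in Miz1(POZ) floxed tumours (-0.58 ± 0.42). Plod3, a lysyl hydroxylase and glycosyltransferase, had -0.15 ± 0.11 in the same comparison. Plod2, the lysyl hydroxylase of collagen telopeptides, had 0.18 ± 0.43 with the Miz1 knockout. It was below the level for testing with Miz1(POZ), at 0.46, 0.44 and 0.46 FPKM in knockout and 0.37, 0.39 and 0.40 FPKM in floxed tumours.

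Of the crosslinking and fibril assembly genes, 12 of 12 had a higher mean in Miz1 knockout tumours (median 0.26), but 6 of 12 did without knockout replicate 1, and 6 of 8 had a higher mean in Miz1(POZ) knockout tumours (0.17). Loxl4, a lysyl oxidase that crosslinks collagen, was at 473, 736 and 456 normalised reads in Miz1 knockout tumours, against 435, 120.1 and 328 in Miz1 floxed tumours. All 3 knockout values lay above the floxed ones, as for 2.57% of all genes tested (1.07 ± 0.49, limma adjusted p = 0.9998). Loxl4 in the Miz1(POZ) tumours was at 1.96, 0.84 and 1.70 FPKM (knockout) and 0.77, 0.80 and 0.94 FPKM (floxed), which overlapped through knockout replicate 2 (0.42 ± 0.20, adjusted p = 0.63). Lox, the founding member of that family, had a log2 fold change of 0.72 ± 0.50 with the Miz1 knockout and was at 0.26, 0.18 and 0.60 FPKM in Miz1(POZ) knockout and 0.26, 0.16 and 0.40 FPKM in Miz1(POZ) floxed tumours. Lum, the fibril-binding proteoglycan lumican, had 0.26 ± 0.14 with the Miz1(POZ) knockout.

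Of the collagen degradation genes, 11 of 11 had a higher mean in Miz1 knockout tumours (median 0.44), 6 of 11 did without knockout replicate 1, and 1 of 4 had a higher mean in Miz1(POZ) knockout tumours (-0.20). Mmp13, the main interstitial collagenase of mice, was at 134, 13.9 and 61.4 normalised reads in Miz1 knockout and 40.8, 15.1 and 15.1 in Miz1 floxed tumours (1.18 ± 0.85). Timp1, an inhibitor of these proteases, was at 107, 16.5 and 9.12 in knockout and 20.4, 3.25 and 10.1 in floxed tumours (1.41 ± 1.02). Knockout replicate 1 was the highest library for both genes, and the groups overlapped. Mmp2, a gelatinase made by stellate cells, had 0.56 ± 0.55 with the Miz1 knockout and -0.32 ± 0.21 with the Miz1(POZ) knockout. Timp3, a matrix-bound inhibitor, was at 7.20, 8.95 and 14.7 FPKM in Miz1(POZ) knockout and 16.4, 14.4 and 14.0 FPKM in Miz1(POZ) floxed tumours (-0.55 ± 0.24, limma adjusted p = 0.58). Timp1 was at 0.41, 0.11 and 0.39 FPKM in Miz1(POZ) knockout and 0.81, 0.10 and 0.89 FPKM in Miz1(POZ) floxed tumours, below the level for testing.

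Collagen receptor genes were higher for 6 of 8 in Miz1 knockout tumours (median 0.18), for 3 of 8 without knockout replicate 1, and for 3 of 5 in Miz1(POZ) knockout tumours (0.02, and below 0 under quantile scaling or with equal column sums). Lair1, an inhibitory collagen receptor of immune cells, was at 1.96, 2.23 and 1.95 FPKM in Miz1(POZ) knockout tumours, against 1.37, 1.06 and 1.84 FPKM in Miz1(POZ) floxed tumours. All 3 knockout values were above the floxed ones, as for 8.68% of all genes tested (0.34 ± 0.15, limma adjusted p = 0.61). With the Miz1 knockout Lair1 was at 448, 193 and 229 normalised reads in knockout and 276, 94.1 and 177 in floxed tumours, higher in each same-numbered pair with overlapping groups (0.70 ± 0.48). Itga10, a collagen-binding integrin subunit, had -0.48 ± 0.46 with the Miz1 knockout. Ddr1 and Ddr2, the discoidin domain receptor kinases, had -0.35 ± 0.31 (Ddr1, Miz1(POZ)), -0.04 ± 0.40 (Ddr2, Miz1) and 0.02 ± 0.14 (Ddr2, Miz1(POZ)).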

How the data were processed

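The members and gene lists were chosen with earlier results of these data known. Per the labels' protocols, RNA of 12 tumour samples went into TruSeq libraries. Whether strand was kept is not stated, so antisense and overlapping genes could not be told apart. Per the submitters' processing notes, the genome was mm10, and the tools include DESeq2 1.16.1, edgeR 3.18.1 and RSEM 1.1.17 for expression, Bowtie2 2.2.6, Trimmomatic 0.36 and bcl2fastq 2.19.0. Their roles and order for the deposited values are not stated there.

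The Miz1 table that the authors deposited is a signal: each library's read counts were divided by a constant of its own. Whole reads came back in 5 of 6 columns for at least 99.9954% of values (tolerance 0.01 reads). Entries that name no gene (4) held 38.0% to 50.8% of each column sum and were left out. The Miz1(POZ) table that the authors deposited holds FPKM, which its values cannot tell from RPKM. Neither table holds raw counts, so the test planned for normalised values was used.

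In each table, genes with a mean of at least 1 were tested on log2(value + 1), a scale that understates changes of low genes, by eBayes with a trend in limma 3.58.1 under R 4.3.3. Benjamini-Hochberg adjustment ran over all genes tested, with a threshold of 0.05, and each SE is the moderated one. Lists have counts and medians and no test. Scripts were tested on simulated data. Values in every library are given for a set of collagens usual in liver, the 3 collagens of smallest p per table, the largest fold change per class and collagens whose groups did not overlap. From each pathway list the 2 genes of smallest p and a fixed few are named. Alternatives were edgeR 4.0.16 and DESeq2 1.42.0 on the recovered reads of 5 libraries, other scalings, filters and pseudocounts, robust moderation, a replicate block, and leaving out libraries. Replicate numbers come from the titles. Same-numbered Miz1 libraries deviated together (correlations across genes 0.489, 0.339 and 0.118, each over 0.1), which Miz1(POZ) libraries did not all do (-0.093, 0.230 and 0.175). A Miz1 pair of different numbers, knockout replicate 3 and floxed replicate 2, had 0.282. Positions count from 1 and use GENCODE M21 (GRCm38, the same as mm10), and promoter windows use RefSeq (GRCm38.p6). Figures were drawn with matplotlib 3.10.9.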

Additional observations from a re-analysis of the deposited data

Results flagged for a closer look

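Col18a1, the most abundant collagen by FPKM, differed in direction between the alleles. In every same-numbered pair it was lower in the Miz1 knockout library than in the Miz1 floxed one, with a log2 fold change of -0.13, and every Miz1(POZ) knockout library was above its floxed library, with a log2 fold change of 0.35. The Miz1 groups overlapped, so its direction there is by pairs of replicate number. That pairing is not established, and the share of all genes lower in every such pair is not given. That log2 fold change (SE 0.23) was 0.071 under quantile scaling and 0.0030 without knockout replicate 1, both of the same sign as with Miz1(POZ). The difference between the alleles was not tested, because the tables hold different units.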

How the results depend on the processing

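The count of Miz1 genes past the threshold was 0 in all fits except DESeq2, which called 5 genes, 0 of them collagens. The Miz1(POZ) count ranged from 0 to 4 over fits that left out 1 library (2 without floxed replicate 2, 4 without floxed replicate 3). It was 2 without both libraries numbered 2 and 13 without both numbered 3. The replicate block called 0 genes in either table. In this balanced design it cannot move a fold change, so list medians, such as 0.44 for the Miz1 basement membrane collagens, are the same by construction.

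Log2 fold changes that turned when 1 library was left out ranged, for Miz1, from -0.23 to 0.57 (Col1a1), -0.042 to 0.61 (Col1a2), -0.0497 to 0.32 (Col5a1), -0.52 to 0.22 (Col5a2), -0.36 to 0.35 (Col6a1), -0.17 to 0.72 (Col6a2), -0.19 to 0.76 (Col6a3), -0.011 to 0.72 (Col8a1), -0.52 to 0.56 (Col12a1), -0.53 to 0.42 (Col15a1), -0.26 to 0.0030 (Col18a1), -0.19 to 1.02 (Col24a1), -1.36 to 0.51 (Col6a6), -0.26 to 0.41 (Plod2) and -0.43 to 0.26 (Ddr2). For Miz1(POZ) they ranged from -0.42 to 0.14 (Col3a1), -0.46 to 0.12 (Col4a1), -0.52 to 0.15 (Col4a2), -0.087 to 0.14 (Col6a1), -0.62 to 0.15 (Col4a4), -0.069 to 0.32 (Serpinh1) and -0.053 to 0.095 (Ddr2). List medians ranged from -0.083 to 0.13 (Miz1 folding and processing), -0.42 to -0.11 (Miz1(POZ) fibrillar), -0.087 to 0.049 (Miz1(POZ) network) and 0.16 to 0.29 (Miz1(POZ) other).

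Without both Miz1 libraries numbered 1, the fibrillar median was -0.14, and the log2 fold changes were -0.081 (Col1a1), -0.092 (Col1a2), -0.14 (Col5a1), -0.47 (Col6a1), -0.37 (Col6a2), -0.23 (Col6a3), -0.50 (Col15a1), -0.33 (Col24a1), -0.37 (Plod2) and -0.34 (Mmp2). Without both numbered 2 they were 0.025 (Col27a1) and 0.44 (Ddr2). Without both numbered 3 the network median was 0.68, with 0.39 (Col5a2), -0.025 (Col12a1), 0.31 (Col6a6) and 0.11 (Ddr2). For Miz1(POZ) the values were 0.11 (Col6a1) and 0.081 (Col27a1) without number 1, 0.10 (Col3a1), -0.019 (Col5a2), 0.068 (Col4a1), 0.039 (Col4a2) and -0.045 (Ddr2) without number 2, and 0.11 (Col4a4) without number 3.

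Other settings turned Miz1 Col5a2 (0.27 with DESeq2, 0.29 with edgeR, 0.018 with equal column sums), Col12a1 (-0.23 and -0.22 with DESeq2 and edgeR), Col6a6 (0.31 and 0.32) and Ddr2 (0.078 and 0.083, and 0.0083 with equal column sums). Quantile scaling turned Miz1 Col18a1 (0.071), and equal column sums turned Miz1(POZ) Ddr2 (-0.0045). Without a filter the Miz1(POZ) medians were 0.0050 (other) and 0.0701 (crosslinking), since low genes then entered. The edgeR and DESeq2 fits lack floxed replicate 3; for the scalings the cause was not tested. Precision is lowest for collagens with few reads or low FPKM.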

Other observations

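Likeness to Col1a1 over the 6 libraries of a table was ranked over all tested genes by Pearson's r of log2(value + 1), as a description of 6 libraries that fall into 2 groups. Outside the collagens, Chaf1a (a chromatin assembly factor subunit, r = 0.994) and Aldh1a2 (a retinoic acid synthesising enzyme, r = 0.991) were the most alike in the Miz1 table. Aldh1a2 was at 52.7, 16.5 and 11.5 normalised reads in knockout tumours, against 26.4, 8.66 and 29.3 in floxed tumours. In the Miz1(POZ) table Tuba1b (a tubulin, r = 0.991) and Ppic (a secretory pathway prolyl isomerase, r = 0.989) were the most alike. Ppic was at 2.17, 1.90 and 4.41 FPKM in knockout tumours, against 3.09, 3.37 and 3.89 FPKM in floxed tumours. No gene was among the 2 most alike in both tables.

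Mmp13, tested only in the Miz1 table, was at 0.88, 0.37 and 0.33 FPKM in Miz1(POZ) knockout tumours, against 0.19, 0.17 and 0.09 FPKM in Miz1(POZ) floxed tumours. All 3 knockout values lay above the floxed ones, at a level below the mean of 1 FPKM needed for testing. Of all untested genes above 0 in some library, 3.09% had all 3 above. Mmp13 was singled out here after its values were seen. Plod1, a lysyl hydroxylase also singled out after its values were seen, was at 1349, 1559 and 1507 normalised reads in Miz1 knockout tumours, against 1638, 1698 and 1607 in Miz1 floxed tumours. All 3 knockout values were below the floxed ones, as for 3.05% of all genes tested.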
